A study of Mus musculus with 4 samples.

Results

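The genes described here encode the proteins of the mitochondrial ribosome that carry the mouse gene names Mrpl (large subunit) and Mrps (small subunit) followed by a number. All 78 genes with such a name were taken from the 4 gene tables, 49 named Mrpl and 29 named Mrps, out of 55487 genes in all. The tables came from mouse skin cells labelled as regulatory T cells, with or without exposure to narrow-band ultraviolet B (UVB), in 2 libraries per group numbered 1 and 2. The mice were shaved on the back and had psoriasis-like dermatitis, induced with a cream holding 5% imiquimod, which activates the receptor TLR7, at 60 mg each day. The irradiated animals received UVB on alternate days, 3 times in all. The series text gives the imiquimod treatment for the mice as a whole and not separately for each group, and the sources used here do not give strain, sex or age. The study's title concerns the induction of peripheral regulatory T cells by UVB, and the comparison of the 2 groups asked what differed in skin regulatory T cells after UVB. Whether the replicates are separate animals is not stated, and the p-values therefore describe the spread among these libraries, which may be technical.

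The mitochondrial ribosome translates the few messenger RNAs encoded in mitochondrial DNA, all of which specify core subunits of the respiratory chain and of ATP synthase. Its ribosomal RNAs come from mitochondrial DNA, whereas all of its proteins are encoded in the nucleus, made in the cytosol and imported. Some of these proteins have a counterpart in bacterial ribosomes and others exist only in mitochondria. Regulatory T cells are known to depend on mitochondrial respiration. By these known classes, 51 of the 78 genes encode large subunit proteins (30 with a bacterial counterpart and 21 specific to mitochondria) and 26 encode small subunit proteins (16 and 10). Mrps18a and Mrps30 are counted with the large subunit, where their proteins sit despite the names. Mrps36 carries the name but encodes a component of the 2-oxoglutarate dehydrogenase complex.

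The FPKM values of the libraries rested on between about 23800000 and 42000000 reads of 100 bp. Genes at 1 TPM or more (a level corrected for gene length, with the same total in every library) numbered 7825 and 8033 in non-UVB replicates 1 and 2 and 10317 and 10227 in UVB replicates 1 and 2. CD4 T cell markers were above 0 in all libraries, with sums between 5058 and 7902 TPM. Foxp3, the defining factor of regulatory T cells, was listed at 0 in non-UVB replicate 1. Of 7 regulatory T cell markers, 1 was at 0 and 2 were under 1 TPM in that library. With number 1, these 7 markers summed to 2696 TPM without UVB and 2610 TPM with it. With number 2, their sums were 8136 TPM without UVB and 5942 TPM with it. Markers of gamma-delta T cells had sums of 9827 (non-UVB) and 9047 (UVB) TPM with number 1 but 177 and 307 TPM with number 2. Keratinocyte markers had sums of 311 and 461 TPM with number 1 but 3697 and 4213 TPM with number 2. The share of TPM from haemoglobin genes was 11.7% in non-UVB replicate 1 and at most 0.441% elsewhere. In bulk RNA, fewer cells of a type and less RNA per cell cannot be told apart.

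Within a group, values are given in the order of replicates 1 and 2. More mitochondrial ribosomal protein genes were close to undetected without UVB than with it. Of the 78 genes, 26 and 30 were under 1 TPM in non-UVB replicates 1 and 2, and 3 and 8 in UVB replicates 1 and 2. The means were 28 ± 2.83 genes without UVB and 5.5 ± 3.54 with UVB (SD, n = 2 libraries per group), and the groups did not overlap. Genes listed at exactly 0 numbered 15, 5, 3 and 2 in the same order, so the 2 non-UVB libraries differed in how many genes had no value at all. The median level over the 78 genes was 30.97 and 29.5 TPM (non-UVB) and 70.1 and 43.7 TPM (UVB). The number of genes detected overall moved the same way, and its part in this result was not tested.

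**Figure D1:**
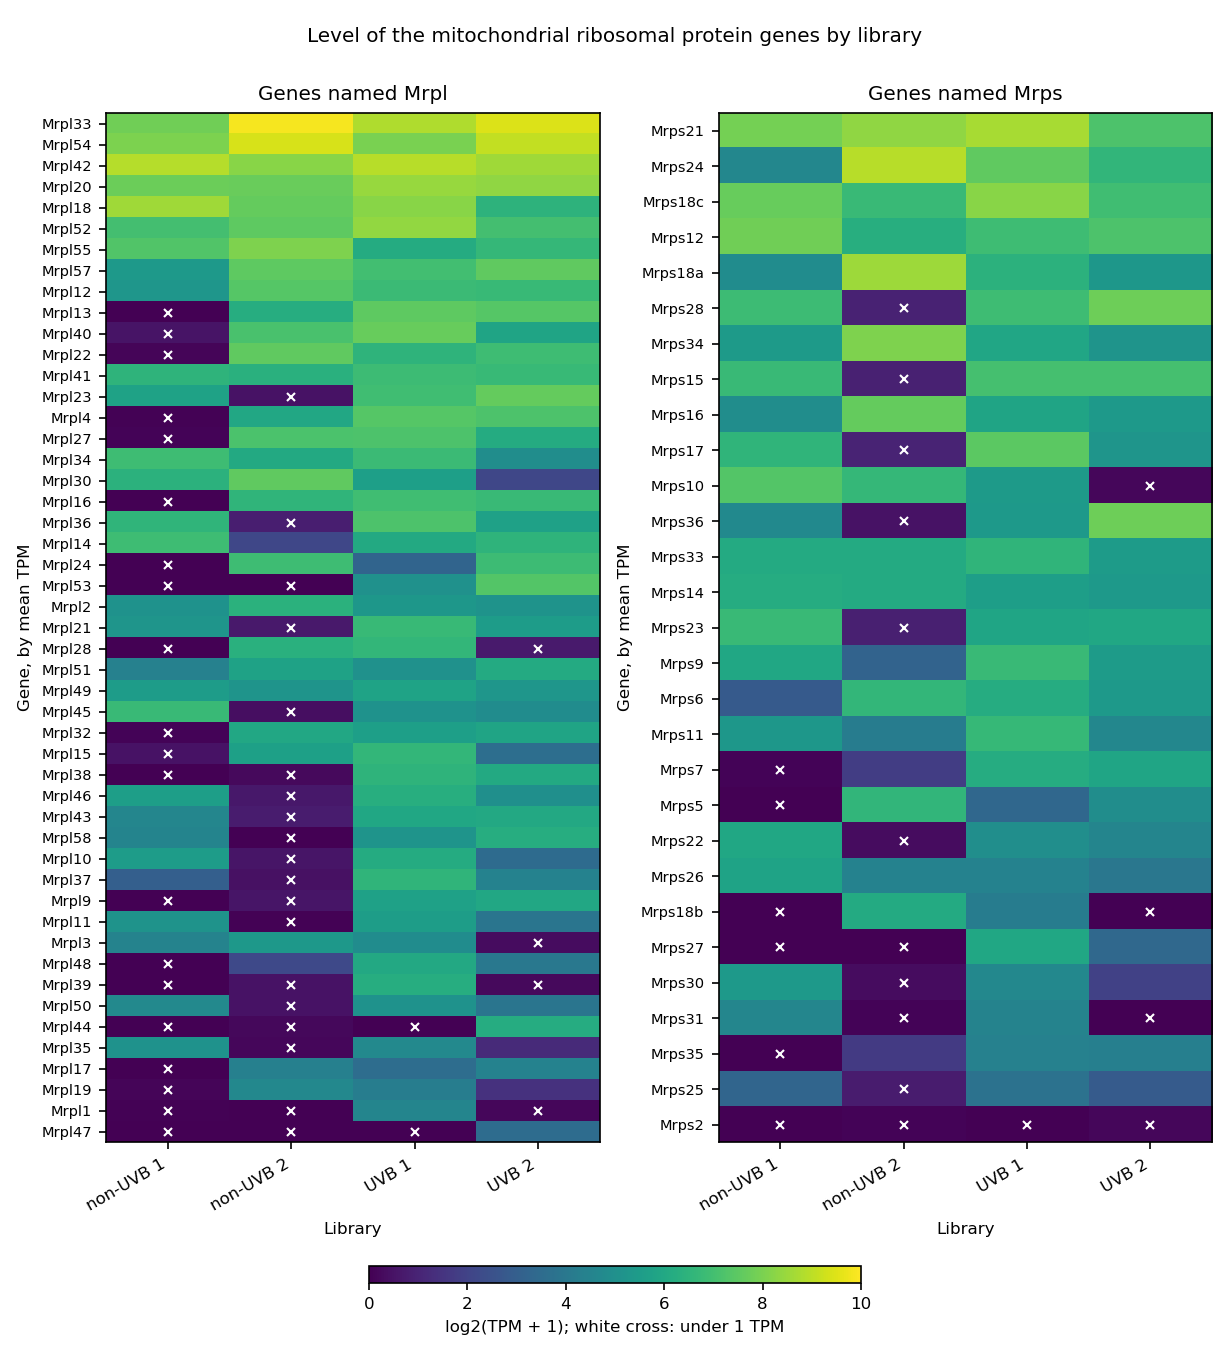
Level of each of the 78 genes, as log2(TPM + 1) by colour, in the 4 libraries (columns), with genes ordered by their mean TPM within the Mrpl and Mrps names, and a white cross where the value was under 1 TPM. The crosses number 26 and 30 in the non-UVB columns and 3 and 8 in the UVB columns.

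A similar step was present across the transcriptome, so the counts were set beside those of other genes. Tested genes were the 10286 that reached 1 TPM in 2 or more libraries, and 73 of the 78 genes were among them. Of these 73, 21 and 25 were under 1 TPM in the non-UVB libraries (28.8% and 34.2%), beside 28.9% and 27.8% of all tested genes. In the UVB libraries 0 and 5 of the 73 were under 1 TPM (0% and 6.85%), beside 11.8% and 12.7% of all tested genes. The mitochondrial ribosomal protein genes were therefore near the background without UVB, or above it in replicate 2, and below the background with UVB. Among genes with a mean level between 10 and 100 TPM, a window chosen after seeing the data, 22 and 25 of 57 mitochondrial ribosomal protein genes were below 1 TPM in the non-UVB libraries (38.6% and 43.9%), beside 27.0% and 29.5% of 5606 genes. With UVB the shares in that window were 1.75% and 10.5%, beside 9.03% and 13.5%. The 5606 genes were all tested, whereas the 57 include Mrpl39 and Mrpl44, which were not. Both were under 1 TPM in both non-UVB libraries and in 1 UVB library each. The shares of the 57 are therefore raised and not like for like, and 55 of the 57 were tested.

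**Figure D2:**
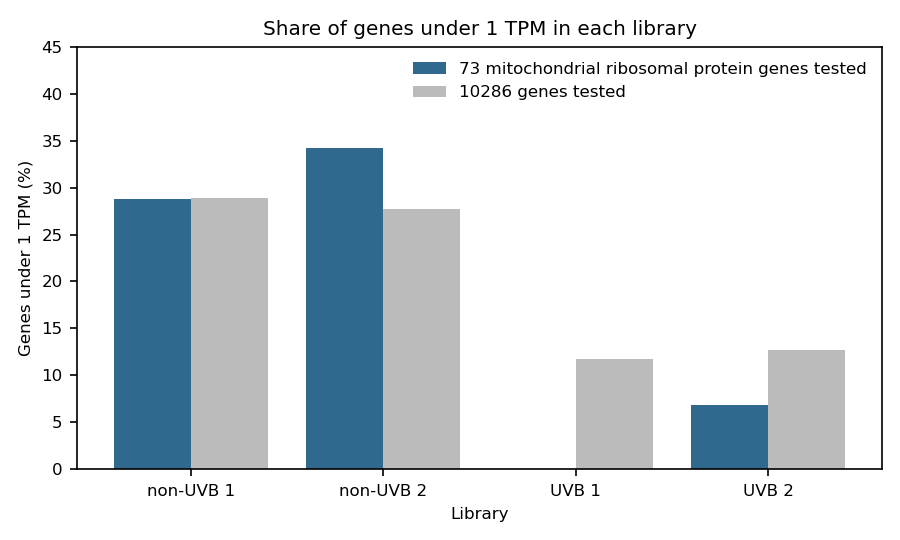
Share of genes under 1 TPM (%) in each library, for the 73 tested mitochondrial ribosomal protein genes (blue) and all 10286 tested genes (grey). The blue bars stand at 28.8% and 34.2% without UVB and at 0% and 6.85% with UVB.

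The low values were mostly all-or-none within a library. Of the 312 values (78 genes in 4 libraries), 67 were under 1 TPM, 8 lay between 1 and 5 TPM, 23 between 5 and 20 TPM and 214 at 20 TPM or more. As many as 45 of the 78 genes had both a value under 1 TPM in a library and a value of 20 TPM or more in another. The median read depth per base over the 78 genes was 34.6, 18.8, 85.0 and 43.5 in non-UVB 1, non-UVB 2, UVB 1 and UVB 2. Among genes under 1 TPM, the read depth reached at most 0.699, 1.60, 0 and 0.871. Among genes at 5 TPM or more it was at least 0.328, 2.86, 3.56 and 1.26. In non-UVB 1 the depths of the low and the higher genes thus overlapped.

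The 2 non-UVB libraries had their low values in largely different genes. In 20 of the 78 genes the value was under 1 TPM in non-UVB replicate 2 alone, a pattern shown by 9.82% of tested genes, and in 15 it was under 1 TPM in non-UVB replicate 1 alone (10.2% of tested genes). Under 1 TPM in both were 9 genes, which is 34.6% of the 26 in replicate 1 and 30% of the 30 in replicate 2. The 9 include the 5 genes that were not tested. Of the 73 tested genes, 21 and 25 were under 1 TPM in non-UVB replicates 1 and 2, and 4 in both. Of all 10286 tested genes, 2970 and 2857 were under 1 TPM in non-UVB replicates 1 and 2, and 1037 in both. A gene low in both was tested only if both UVB libraries were at 1 TPM or more, which limits both counts. Low values in largely different genes were thus also found over all tested genes. For 4 genes, Mrpl53, Mrpl38, Mrpl9 and Mrps27, both non-UVB libraries were under 1 TPM and both UVB libraries at or above it, which 10.1% of tested genes showed. For 0 of the genes was the reverse true, which 1.22% of tested genes showed. All 4 libraries were at 1 TPM or more in 29 genes, beside 46.7% of tested genes. These 29, like the 20, 15 and 4 genes above, all lay among the 73 tested. The shares of tested genes are therefore to be set beside counts out of 73. Across the 78 genes the Pearson correlation of log2(TPM + 1) was 0.21 between the non-UVB libraries and 0.52 between the UVB libraries, and it lay between 0.32 and 0.47 for pairs across the groups. This is a description over genes that share a library, with no test.

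The 4 genes under 1 TPM in both non-UVB libraries and in neither UVB library were as follows. In the large subunit, Mrpl53 (ENSMUSG00000030037, chromosome 6, 83109040 to 83109939, plus strand) encodes a protein specific to mitochondria. Mrpl53 was at 0 and 0 TPM (non-UVB) and 32.5 and 159 TPM (UVB). Mrpl38 (ENSMUSG00000020775, chromosome 11, 116131817 to 116138868, minus strand), also specific to mitochondria, was at 0 and 0.201 TPM (non-UVB) and 90.3 and 66.9 TPM (UVB). Mrpl9 (ENSMUSG00000028140, chromosome 3, 94443318 to 94451130, plus strand) encodes the counterpart of the bacterial protein L9. Mrpl9 was at 0 and 0.490 TPM (non-UVB) and 52.5 and 63.7 TPM (UVB). In the small subunit, Mrps27 (ENSMUSG00000041632, chromosome 13, 99344786 to 99415562, plus strand) encodes a pentatricopeptide repeat protein. Mrps27 was at 0 and 0 TPM (non-UVB) and 61.6 and 9.37 TPM (UVB). These 4 genes were chosen for low non-UVB and higher UVB values, so the groups could not overlap in them. The UVB libraries themselves differed most in Mrps27 and Mrpl53.

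The promoter stretches of 2 of these genes and of 4 others are shown as examples. Nuclear genes of the mitochondrial ribosome are known targets of the factors NRF1 and GABP (an ETS family factor, also called NRF2). The sequences are RefSeq bases of GRCm38.p6, cut to stretches outside annotated exons, with capitals marking GCATGCG or its reverse complement CGCATGC (NRF1) and CCGGAAG or CTTCCGG (ETS). Mrpl9 (chr3:94443218-94443317, plus strand) and Mrps27 (chr13:99344706-99344785, plus strand) were under 1 TPM in both non-UVB libraries. Mrpl43 (chr19:45006443-45006542, minus strand) and Mrps22 (chr9:98601680-98601779, minus strand) were under it in non-UVB replicate 2 alone. Mrpl33 (chr5:31613839-31613938, plus strand) and Mrpl42 (chr10:95501950-95502049, minus strand) were among the most abundant of the genes by TPM.
Mrpl9: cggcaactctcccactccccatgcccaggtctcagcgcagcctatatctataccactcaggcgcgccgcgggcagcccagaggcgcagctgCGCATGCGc
Mrps27: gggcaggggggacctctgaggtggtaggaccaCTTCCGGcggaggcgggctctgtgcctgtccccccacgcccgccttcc
Mrpl43: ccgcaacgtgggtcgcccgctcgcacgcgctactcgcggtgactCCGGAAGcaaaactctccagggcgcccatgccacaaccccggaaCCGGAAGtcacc
Mrps22: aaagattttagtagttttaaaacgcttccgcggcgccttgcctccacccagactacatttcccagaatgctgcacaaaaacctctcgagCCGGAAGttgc
Mrpl33: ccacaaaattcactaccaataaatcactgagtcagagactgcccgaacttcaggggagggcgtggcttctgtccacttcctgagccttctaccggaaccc
Mrpl42: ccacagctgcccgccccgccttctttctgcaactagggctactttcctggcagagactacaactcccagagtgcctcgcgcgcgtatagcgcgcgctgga
The stretch of Mrpl9 held the NRF1 letters near its end, as overlapping matches on both strands, and that of Mrpl43 held the ETS letters at 2 places. The stretches of Mrpl33 and Mrpl42 held neither set, but the window of Mrpl33 around its start, described next, held both in bases not shown. All the low genes shown held capitals and the abundant ones did not, but these examples do not represent the other genes. The stretches of Mrpl10 and Mrpl11, also under 1 TPM in non-UVB replicate 2 alone, held neither set. Those of Mrpl52 and Mrps18c, at 1 TPM or more in all libraries, held the ETS letters. No contrast between low and abundant genes can therefore be read from the stretches shown.

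Promoter windows from 250 bases before to 50 bases after the start were found for 69 of the 78 genes, and both strands were searched. The ETS letters were present in 26 of the 69 (37.7%), in 22.7% of 6243 tested genes with a window and in 9.93% of all 27025 genes with one. The NRF1 letters were present in Mrpl9, Mrpl10, Mrpl17, Mrpl22, Mrpl32, Mrpl33, Mrpl39 and Mrps18b (8 genes, 11.6%), beside 8.06% of tested genes and 4.01% of all. GATGGCG or CGCCATC, core letters of the factor YY1, were present in Mrpl35, Mrpl36, Mrpl37, Mrpl42, Mrps11, Mrps18a, Mrps24 and Mrps27 (8 genes, 11.6%), beside 8.47% and 4.04%. GGGCGG or CCGCCC, the core of the SP1 site, was present in 49.3%, beside 69.3% of tested genes and 38.2% of all, and TATAAA or TTTATA in 7.25%, beside 9.64% and 15.7%. A match is a description of letters and not a shown site. The 26 genes with the ETS letters had 7, 7, 0 and 2 values under 1 TPM in non-UVB 1, non-UVB 2, UVB 1 and UVB 2, and the 43 without had 13, 21, 3 and 6. The median difference between UVB and non-UVB was 0.47 log2 in the former and 1.35 log2 in the 38 of the latter that were tested.

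Other large subunit genes were listed at 0 in 1 or 2 libraries. In non-UVB replicate 1, Mrpl13 was listed at 0 beside 75.1 TPM in non-UVB replicate 2 and 184 and 162 TPM (UVB). Mrpl16, whose bacterial counterpart lies near the site of tRNA binding, was at 0 and 91.4 TPM (non-UVB) and 122 and 107 TPM (UVB). Mrpl24 was at 0 and 116 TPM (non-UVB) and 8.28 and 115 TPM (UVB), and Mrpl17 was at 0 and 19.3 TPM (non-UVB) and 10.8 and 20.7 TPM (UVB). These 4 genes shared a 0 in non-UVB replicate 1 and clear levels in non-UVB replicate 2. Mrpl28 was at 0 and 80.0 TPM (non-UVB) and 96.7 and 0.649 TPM (UVB), so it was near 0 in 1 library of each group. Mrpl58, a peptidyl-tRNA hydrolase that acts on stalled ribosomes, was at 21.6 and 0 TPM (non-UVB) and 35.0 and 74.1 TPM (UVB). Mrpl39 was detected in UVB replicate 1 alone, with 0 and 0.412 TPM (non-UVB) and 73.9 and 0.185 TPM (UVB). Mrpl44, which carries a fold of the ribonuclease III family, was detected in UVB replicate 2 alone, with 0 and 0.150 TPM (non-UVB) and 0 and 71.4 TPM (UVB).

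Among small subunit genes, Mrps35 was at 0 and 2.22 TPM (non-UVB) and 19.98 and 18.8 TPM (UVB), and Mrps5 was at 0 and 93.8 TPM (non-UVB) and 9.11 and 29.0 TPM (UVB). Mrps18b was at 0 and 68.0 TPM (non-UVB) and 17.5 and 0 TPM (UVB), and Mrps31 was at 23.0 and 0.0626 TPM (non-UVB) and 21.3 and 0 TPM (UVB). The last 2 genes were thus listed at 0 in UVB replicate 2. Mrps2, Mrpl47 and Mrpl1 were the other genes listed at 0 in at least 1 library. Mrps2 was the gene with the lowest mean, at 0 and 0.0600 TPM (non-UVB) and 0 and 0.134 TPM (UVB), and Mrpl47 was at 10.5 TPM in UVB replicate 2 and at most 0.0197 TPM elsewhere. Mrpl1, the counterpart of the protein of the bacterial L1 stalk, was at 0.0318 and 0 TPM (non-UVB) and 22.2 and 0.128 TPM (UVB). Mrps25 was the fourth of the genes with the lowest means, at 8.54 and 0.715 TPM (non-UVB) and 12.5 and 6.24 TPM (UVB).

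Summed over the 78 genes the level differed less between groups than the number detected did. The sum was 4817 and 7080 TPM (non-UVB) and 7817 and 6387 TPM (UVB), so the groups overlapped. The means were 5948 ± 1600 TPM and 7102 ± 1011 TPM (SD, n = 2 libraries per group), which is a difference within the spread of the libraries. These sums made up 0.482%, 0.708%, 0.782% and 0.639% of all TPM. The 6 genes with the highest means held between 29.6% and 43.3% of the sum in each library.

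Large subunit genes had sums of 3047 and 5082 TPM (non-UVB) and 5430 and 4779 TPM (UVB). Small subunit genes had sums of 1744 and 1997 TPM (non-UVB) and 2346 and 1387 TPM (UVB). The ratio of the large to the small sum was 1.75, 2.54, 2.31 and 3.45 in non-UVB 1, non-UVB 2, UVB 1 and UVB 2, so it did not separate the groups. Of the 51 large subunit genes 20 and 20 (non-UVB) and 2 and 4 (UVB) were under 1 TPM, and of the 26 small subunit genes 6 and 9 against 1 and 4. The 31 subunit genes specific to mitochondria had a median of 24.9 and 0.850 TPM (non-UVB) and 59.2 and 37.0 TPM (UVB). The 46 with a bacterial counterpart had a median of 33.9 and 65.1 TPM against 92.7 and 48.6 TPM. In non-UVB replicate 2, 16 of the 31 and 13 of the 46 were under 1 TPM.

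In the comparison of UVB with non-UVB libraries, most of the 73 tested genes had a higher mean with UVB and 0 passed the test. On the log2(TPM + 1) scale, which understates the change of low genes, the mean was higher with UVB in 56 of 73 (76.7%), beside 61% of all tested genes. With limma and Benjamini-Hochberg adjustment over all tested genes, 0 of the 73 and 0 of 10286 genes (0%) had an adjusted p under 0.05. At an unadjusted p under 0.05, limma gave 6 of the 73 higher with UVB, beside 9.97% of tested genes, and 0 lower, beside 1.37%. The 2 groups did not overlap in 20 of the 73 with higher and 5 with lower values under UVB, beside 23.2% and 9.71% of tested genes. These shares were near the background, and a p that misses the threshold does not show that levels were alike. A gene near 0 in a group is tested only where the other group is high, so such counts over tested genes are descriptions.

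The median difference of the 73 genes was 1.29 log2, beside 0.26 log2 over all tested genes. Each library moved this median. It was 0.50 and 0.49 log2 without non-UVB replicates 1 and 2, and 0.89 and 1.74 log2 without UVB replicates 1 and 2. Relative to the median of all genes it was 1.03 log2 with all libraries, 0.44 and 0.24 log2 without non-UVB replicates 1 and 2, and 0.49 and 1.38 log2 without UVB replicates 1 and 2. The number with an unadjusted limma p under 0.05 and a higher mean was 21 when non-UVB replicate 1 was left out, 18 for non-UVB replicate 2, and 0 without either UVB library. The number with a lower mean was 3 when non-UVB replicate 1 was left out, 2 for UVB replicate 1, and 0 for each of the other two libraries. In the same fits 14.9% and 14.5% of all tested genes were called higher with a non-UVB library dropped, and 0.0478% and 0.13% with a UVB library dropped. The shares called lower were 1.99% and 1.08%, and 0.693% and 0.261%. After quantile normalization, which set the median of all genes at -0.19 log2, the median of the 73 was 0.90 log2, and 72.6% of them had a higher mean with UVB beside 44.9% of all tested genes. Macrophage and dendritic cell markers had sums of 12473 and 6428 TPM (non-UVB) and 20976 and 13463 TPM (UVB). Of that list, 11 of 12 tested markers had a higher mean with UVB, and Itgax, a defining marker of dendritic cells, was listed at 0 in 3 libraries. Their part in the difference was not tested.

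The median difference was larger at intermediate levels than among abundant genes, in windows chosen after seeing the data. The 17 genes averaging 100 TPM or more had a median difference of 0.30 log2, with 11 higher, beside 0.12 log2 over 1743 genes at such levels. The 55 tested genes with a mean between 10 and 100 TPM had a median of 1.83 log2, with 44 higher, beside 0.32 log2 over 5606 genes. By subunit, 39 of 47 tested large subunit genes had a higher mean with UVB, with a median of 1.77 log2, and 16 of 25 small subunit genes, with a median of 0.84 log2. The 5 genes outside the test were Mrpl1, Mrpl39, Mrpl44, Mrpl47 and Mrps2. With every gene above 0 included, 61 of 78 (78.2%) had a higher mean with UVB, beside 62% of 20976 genes.

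Of the 8 genes with the smallest p among those higher with UVB, 5 were the following. Mrpl38 differed by 6.17 ± 1.08 log2 (SE over 2 libraries per group; limma adjusted p = 0.223). Mrpl9 differed by 5.59 ± 1.09 log2 (limma adjusted p = 0.223) and Mrpl53 by 6.19 ± 1.33 log2 (limma adjusted p = 0.223). The levels of these 3 genes are given above. Mrps7, the counterpart of bacterial S7, a protein of the head of the small subunit, was at 0.0835 and 2.48 TPM (non-UVB) and 71.1 and 58.3 TPM (UVB). Its difference was 5.07 ± 1.21 log2 (limma adjusted p = 0.226). For Mrps27 the difference was 4.67 ± 1.30 log2 (limma adjusted p = 0.280).

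The other 3 were Mrps35, Mrpl48 and Mrpl37, all specific to mitochondria. Mrps35 differed by 3.50 ± 1.16 log2 (limma adjusted p = 0.387). Mrpl48 was at 0.00980 and 3.68 TPM (non-UVB) and 63.7 and 14.98 TPM (UVB), a difference of 3.89 ± 1.51 log2 (limma adjusted p = 0.509). Mrpl37 was at 7.19 and 0.374 TPM (non-UVB) and 91.7 and 20.5 TPM (UVB), a difference of 3.73 ± 1.57 log2 (limma adjusted p = 0.578). All 8 had both UVB libraries above both non-UVB libraries, which 23.2% of all tested genes showed. They were picked by p from these same values, so this adds no support. No one of them passed the adjusted test.

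Among the 8 with the smallest p of those lower with UVB, Mrpl55 was at 155 and 269 TPM (non-UVB) and 70.7 and 100.1 TPM (UVB). Mrpl55 differed by -1.27 ± 0.55 log2 (limma adjusted p = 0.607) and was detected well in all libraries. Mrpl30, the counterpart of bacterial L30, was at 85.1 and 187 TPM (non-UVB) and 49.5 and 3.38 TPM (UVB), a difference of -3.10 ± 1.47 log2 (limma adjusted p = 0.671). Mrps10, the counterpart of bacterial S10, was at 159.7 and 101 TPM (non-UVB) and 42.7 and 0.127 TPM (UVB), a difference of -4.19 ± 2.04 log2 (limma adjusted p = 0.688). In both genes UVB replicate 2 was far below UVB replicate 1. Mrpl3, whose bacterial counterpart lies near the peptidyl transferase centre, was at 21.4 and 39.8 TPM (non-UVB) and 28.2 and 0.257 TPM (UVB), so a single UVB library was low. Mrps14 was at 72.6 and 68.8 TPM (non-UVB) and 47.1 and 39.8 TPM (UVB) and differed by -0.69 ± 0.59 log2. Mrps26 was at 55.1 and 20.6 TPM (non-UVB) and 20.5 and 14.7 TPM (UVB), so non-UVB replicate 2 and UVB replicate 1 nearly coincided. Mrps34 was at 42.5 and 264 TPM (non-UVB) and 59.2 and 35.2 TPM (UVB), and Mrpl18 was at 385 and 199 TPM (non-UVB) and 295 and 88.1 TPM (UVB). In the last 2 genes the groups overlapped.

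**Figure D3:**
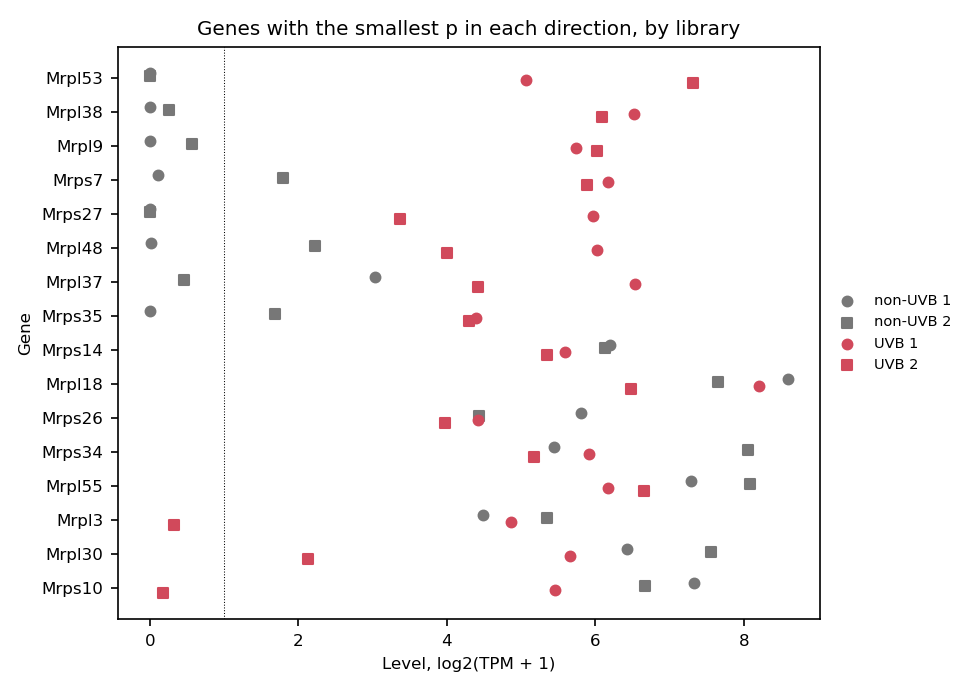
Level of 16 genes as log2(TPM + 1) in each library, the 8 with the smallest p among those higher with UVB (top) and the 8 among those lower (bottom). Grey marks are non-UVB and red marks UVB libraries, circles replicate 1 and squares replicate 2, and the dotted line is at 1 TPM. In the 8 upper genes, which were picked by p from these same values, the red marks lie to the right of the grey marks.

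Libraries that share a replicate number gave unequal pictures. With number 1, 57 of the 73 tested genes were higher with UVB, with a median of 0.75 log2, beside a median of 0.27 log2 over all tested genes. With number 2, 42 of the 73 were higher, with a median of 0.37 log2, beside 0.16 log2. Both numbers gave a higher value with UVB in 35 genes (47.9%), beside 34.0% of all tested genes, and both a lower value in 9 (12.3%), beside 17.7%. In 29 genes the numbers went in opposite directions. Mrpl28 was an extreme case, 6.61 log2 higher with UVB in number 1 and 5.62 log2 lower in number 2.

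**Figure D4:**
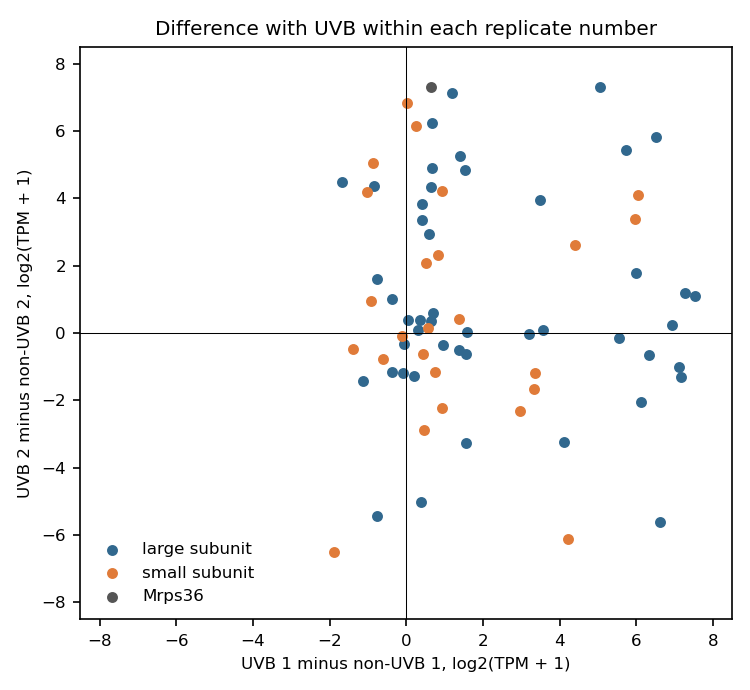
Difference between the UVB and the non-UVB library of the same replicate number, in log2(TPM + 1), for number 1 (x axis) and number 2 (y axis), with large subunit genes in blue, small subunit genes in orange and Mrps36 in grey. Many points lie along an axis, with a large difference in a single number, and 35 of the 73 tested genes lie above 0 on both axes.

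The most abundant genes differed less between libraries. Mrpl33 (ENSMUSG00000106918, chromosome 5, 31596935 to 31664384, plus strand) had the highest mean, at 226 and 927 TPM (non-UVB) and 441 and 719 TPM (UVB). Mrpl54 was at 261 and 668 TPM (non-UVB) and 252 and 536 TPM (UVB) and Mrpl42 at 471 and 295 TPM (non-UVB) and 482 and 383 TPM (UVB). Mrpl54 and Mrpl33 were higher in the libraries numbered 2, in both groups. Mrps21, the counterpart of bacterial S21, was at 242 and 323 TPM (non-UVB) and 408 and 145 TPM (UVB). Mrpl20 was at 213 and 210.4 TPM (non-UVB) and 347 and 320.0 TPM (UVB), the only one of the 6 genes with the highest means in which the groups did not overlap, by 0.65 ± 0.37 log2 (limma adjusted p = 0.794). Mrpl18, with the values above, was the sixth. Leaving out a library turned the sign of the difference in Mrpl33, Mrpl54, Mrpl42, Mrps21 and Mrpl18, whose differences with all libraries were 0.30, -0.19, 0.20, -0.20 and -0.77 log2.

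Levels were higher for shorter transcripts. Transcript lengths of the 78 genes ran from 405 to 6073 bp with a median of 1051.5 bp. The 29 genes at 1 TPM or more in all libraries had a median length of 757 bp and a median mean level of 100.1 TPM. The 37 genes under 1 TPM in 1 library had 1162 bp and 40.3 TPM, the 7 under it in 2 libraries 1366 bp and 29.2 TPM, and the 4 under it in 3 libraries 2829 bp and 11.7 TPM. Mrps2, under it in all 4, departed from this order of lengths, with 2080 bp and 0.0484 TPM. The mean level covers the same libraries as the count of low values, so its fall along these groups is built in. Length also enters the calculation of TPM, so level and length are not independent measures. Spearman's rho between length and mean level was -0.67 over the 78 genes and -0.44 over 7615 tested protein-coding genes, a description across genes of the same libraries.

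**Figure D5:**
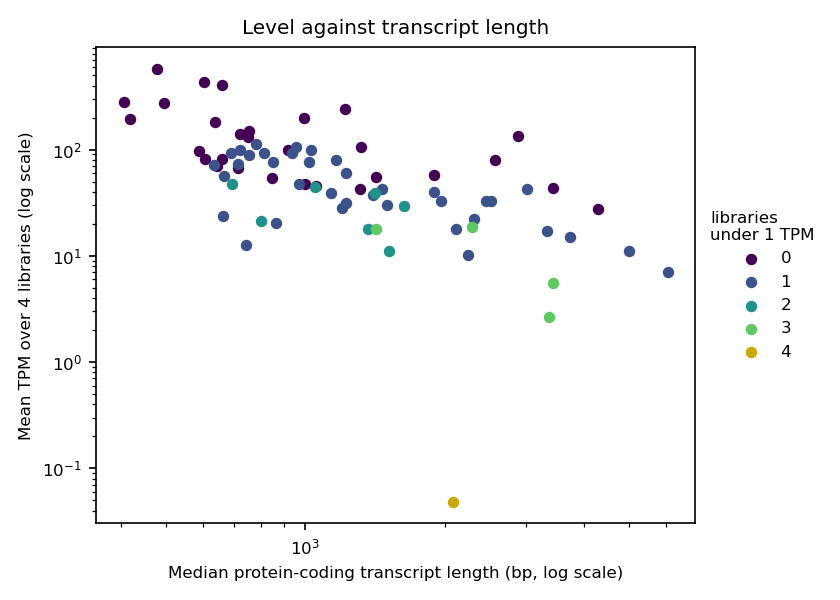
Mean TPM over the 4 libraries (y axis, log scale) against the median length of protein-coding transcripts in bp (x axis, log scale) for the 78 genes, coloured by the number of libraries under 1 TPM. Genes with no low library cluster at the short and abundant end, with a median length of 757 bp.

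The stalk of the large subunit, which recruits translation factors, is built on Mrpl10, Mrpl11 and Mrpl12. Mrpl12 was at 37.1 and 166 TPM (non-UVB) and 111 and 107 TPM (UVB). Mrpl10 was at 45.4 and 0.486 TPM (non-UVB) and 69.4 and 10.3 TPM (UVB), and Mrpl11 was at 34.6 and 0.0298 TPM (non-UVB) and 46.5 and 13.7 TPM (UVB). Mrpl10 and Mrpl11 were both near 0 in non-UVB replicate 2, where Mrpl12 was at its highest. Mrpl45, which helps to tie the ribosome to the inner membrane, was at 109.9 and 0.278 TPM (non-UVB) and 33.5 and 27.8 TPM (UVB).

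The 3 paralogues of bacterial S18 differed in pattern. Mrps18c was at 204 and 109 TPM (non-UVB) and 300.5 and 122 TPM (UVB), the steadiest of them. Mrps18a was at 28.2 and 370.2 TPM (non-UVB) and 84.5 and 37.8 TPM (UVB), with its peak in non-UVB replicate 2, as was that of Mrps18b given above. Other small subunit genes also had no common pattern. Mrps12, whose bacterial counterpart is part of the decoding centre, was at 226 and 75.2 TPM (non-UVB) and 118 and 145 TPM (UVB). Mrps16 was at 28.9 and 195 TPM (non-UVB) and 56.5 and 41.1 TPM (UVB) and Mrps22 at 61.4 and 0.270 TPM (non-UVB) and 29.9 and 22.1 TPM (UVB), 2 genes that are mutated in human deficiencies of oxidative phosphorylation. Mrps36, the dehydrogenase component, was at 25.8 and 0.402 TPM (non-UVB) and 40.7 and 221 TPM (UVB), and the groups did not overlap.

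Several values could include reads of another locus, since the sources used here do not give the strand setting of the libraries. All 78 genes had the coordinates of GENCODE M21, and 33 have exons that overlap another gene, 28 of them on the opposite strand. Of the exon bases of Mrpl53, 88.0% are shared with the predicted gene Gm42688 on the same strand, which was at 0, 0.112, 0 and 0 TPM in non-UVB 1, non-UVB 2, UVB 1 and UVB 2. Of those of Mrps34, 63.4% are shared with Mapk8ip3 on the opposite strand, at 0.409, 9.16, 3.89 and 16.5 TPM in the same order, and of Mrps25, 69.8% with Nr2c2, at 0.142, 0.0450, 0.00885 and 1.09 TPM. A copy of at least 97% identity over at least 200 bp elsewhere in the annotation was found for 13 of the 78 genes, which makes the split of their reads uncertain. The pseudogene Mrps36-ps2 was at 7.45, 0.317, 8.73 and 48.2 TPM and followed Mrps36 in its order over the libraries. Gm5776, a copy of Mrps33, was at 87.8, 88.5, 108 and 31.5 TPM, beside 68.0, 67.4, 91.7 and 43.5 TPM for Mrps33 itself. Mrpl48-ps was at 0, 3.98, 37.7 and 16.2 TPM, with its low and high libraries like those of Mrpl48.

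Many of these genes start close to the start of a gene on the opposite strand. Such a start of a protein-coding gene lay within 500 bp in 25 of the 78 (32.1%), beside 14.8% of 7627 tested and 8.89% of 22028 protein-coding genes. Mrpl46 and Mrps11, both mitochondrial ribosomal protein genes, overlap at their first ends on chromosome 7, with annotated starts 412 bp apart. The bases just before both RefSeq starts that lie outside annotated exons (chr7:78783090-78783118, plus strand) are shown as the stretch they share, with no capitals because neither the NRF1 nor the ETS letters are in it.
Mrps11: ccatgaggcaacgcgggccggcgaggggc
Mrpl46 was at 48.1 and 0.546 TPM (non-UVB) and 76.5 and 30.6 TPM (UVB). Mrps11 was at 38.4 and 17.6 TPM (non-UVB) and 102 and 23.9 TPM (UVB), so the pair were on opposite sides of 1 TPM in non-UVB replicate 2. Over the 25 pairs, with this one counted from each side, and 4 libraries, 53 of 100 values were on the same side of 1 TPM for both genes, 43 of them at or above it. In 38 the mitochondrial ribosomal protein gene alone was at 1 TPM or more, and in 9 its partner alone. Mrps18b and Ppp1r10, which encodes a regulatory subunit of protein phosphatase 1, start 45 bp apart and were on the same side in all 4 libraries, with Ppp1r10 at 0.0265, 13.4, 17.3 and 0.774 TPM. Mrpl49 and Fau, a gene of a cytosolic ribosomal protein, start 59 bp apart and were above 1 TPM in all libraries, with Mrpl49 at 44.6 and 34.8 TPM (non-UVB) and 55.2 and 37.0 TPM (UVB). These 2 pairs were chosen after their values were seen.

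Other genes of the mitochondrial translation system were read from lists of known function. Of the 5 ribosomal proteins with other names, 3 had a higher mean with UVB. Aurkaip1, a small subunit protein, was at 68.3 and 46.3 TPM (non-UVB) and 207 and 158 TPM (UVB), a difference of 1.67 ± 0.54 log2 (limma adjusted p = 0.370). Dap3, a GTP-binding small subunit protein, was at 13.1 and 0.824 TPM (non-UVB) and 27.8 and 1.64 TPM (UVB). Ptcd3, a pentatricopeptide repeat protein, was at 1.67 and 183 TPM (non-UVB) and 23.2 and 4.88 TPM (UVB), and Chchd1 was at 267 and 211 TPM (non-UVB) and 234 and 129.6 TPM (UVB). The groups did not overlap in Aurkaip1 and overlapped in the other 3 named here.

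Of 17 translation factors 9 were tested, with 5 higher and 4 lower means and 0 at an unadjusted limma p under 0.05, beside 9.97% of all tested genes for higher and 1.37% for lower means. Mtif3, an initiation factor, was at 63.3 and 77.5 TPM (non-UVB) and 0.00865 and 34.7 TPM (UVB). Mtrf1l, a release factor, was at 0.0417 and 52.1 TPM (non-UVB) and 12.7 and 0.110 TPM (UVB), and Hemk1, a release factor methyltransferase, was at 0 and 0 TPM (non-UVB) and 24.7 and 1.02 TPM (UVB). Tsfm, an elongation factor, was at 0 and 72.2 TPM (non-UVB) and 42.0 and 26.3 TPM (UVB). The values under 1 TPM were again spread over different libraries from gene to gene.

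Of 26 genes of ribosome assembly and ribosomal RNA modification 14 were tested, with 10 higher and 4 lower means. Limma gave 3 of them an unadjusted p under 0.05, all higher with UVB, beside 9.97% of all tested genes, and 0 an adjusted p under 0.05. Mterf4, which works with a methyltransferase of the small ribosomal RNA, was at 0 and 0.0357 TPM (non-UVB) and 41.5 and 44.5 TPM (UVB), a difference of 5.43 ± 1.02 log2 (limma adjusted p = 0.223). Mtg2, a GTPase of large subunit assembly, was at 0.332 and 0.0449 TPM (non-UVB) and 38.7 and 36.3 TPM (UVB), a difference of 5.03 ± 1.03 log2 (limma adjusted p = 0.223). In the opposite direction, the helicase Dhx30 was at 19.4 and 44.6 TPM (non-UVB) and 14.9 and 0.566 TPM (UVB), and the helicase Ddx28 was at 39.5 and 68.8 TPM (non-UVB) and 11.0 and 50.8 TPM (UVB). Mterf4 and Mtg2 were under 1 TPM in both non-UVB libraries and above it in both UVB libraries, as were Mrpl38 and Mrpl9. The same was seen in 10.1% of tested genes. All of these genes were picked by p from these same values, so the likeness adds no support.

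Of 8 genes of mitochondrial transcription and DNA replication 5 were tested, and 4 had a lower mean with UVB. Tfam, which packages mitochondrial DNA and starts its transcription, was at 64.0 and 34.4 TPM (non-UVB) and 8.34 and 0.201 TPM (UVB), a difference of -3.84 ± 1.502 log2 (limma adjusted p = 0.514). The polymerase gene Polg was at 42.1 and 77.0 TPM (non-UVB) and 10.3 and 35.8 TPM (UVB) and its accessory subunit gene Polg2 at 0.755 and 44.8 TPM (non-UVB) and 13.9 and 53.4 TPM (UVB). Among 10 nuclear regulators 7 were tested, 5 with a higher and 2 with a lower mean. Gabpa, the DNA-binding subunit of GABP, was at 0.0233 and 0.1004 TPM (non-UVB) and 11.4 and 21.6 TPM (UVB), a difference of 3.98 ± 0.86 log2 (limma adjusted p = 0.223). Gabpb1 and Gabpb2, its partner subunits, were at 154, 53.9, 59.2 and 11.6 TPM and at 0, 0.144, 14.6 and 2.17 TPM in non-UVB 1, non-UVB 2, UVB 1 and UVB 2. Nrf1 was at 50.6 and 10.2 TPM (non-UVB) and 0.0447 and 34.2 TPM (UVB).

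The RNA partners of these proteins followed the replicate number instead of the group. The small ribosomal RNA of mitochondria, mt-Rnr1, was at 335 and 3317 TPM (non-UVB) and 284 and 2398 TPM (UVB). The large one, mt-Rnr2, was at 1538 and 6542 TPM against 581 and 7675 TPM. Their sum divided by that of the 78 genes was 0.389 and 1.39 without UVB and 0.111 and 1.58 with UVB, so it was higher in both libraries numbered 2. Of the 15 mitochondrially encoded genes tested, 13 had a lower mean with UVB, beside 4008 of all 10286 tested genes. In 0 of the 15 were the groups separated, beside 32.9% of tested genes in either direction. The summed level of the 78 nuclear genes did not follow that order.

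More abundant groups of housekeeping genes showed less of a step. Of 94 cytosolic ribosomal protein genes, 5 and 6 (non-UVB) and 5 and 6 (UVB) were under 1 TPM, and 58 of 89 tested had a higher mean with UVB, with a median difference of 0.16 log2. Of 85 nuclear genes for subunits of oxidative phosphorylation, 8 and 9 (non-UVB) and 6 and 6 (UVB) were under 1 TPM, and 48 of 79 tested had a higher mean, with a median of 0.14 log2. Both groups were more abundant, with median levels between 218 and 482 TPM in each library, against between 29.5 and 70.1 TPM for the mitochondrial ribosomal protein genes. The lists of the mitochondrial translation system were mixed. Of 17 translation factors, 12 and 12 (non-UVB) and 4 and 9 (UVB) were under 1 TPM. Of 26 assembly and modification genes, 19 and 18 against 11 and 14 were under it. Of 10 regulators, 7 and 4 against 4 and 3 were under it. Of 8 transcription and replication genes, 4 were under it in each library. Of 5 ribosomal proteins with other names, 0 and 1 against 0 and 0 were under it. The difference between the groups of genes was not tested.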

How the data were processed

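Per the labels' protocols, an ultra-low-input kit was used for the 4 libraries, which were read as 100 bp single-end reads. The submitters' processing notes name GRCm38 (mm10), HISAT2, StringTie and DESeq2; the sources used here do not give versions, roles, annotation or strand setting. Per the file headers, the authors deposited coverage (read depth averaged over a gene's bases), FPKM and TPM for each gene and library. Deposited TPM sums to 1000000 in each library.

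Rows of a gene ID were summed. The design allowed for read numbers, and the deposited TPM were tested because the files hold none. The 10286 genes that reached 1 TPM in 2 or more libraries were tested as log2(TPM + 1) with limma 3.58.1 in R 4.3.3, with an intensity trend and Benjamini-Hochberg adjustment over all of them at a threshold of 0.05. The script was tested on simulated data, where it recovered the sizes of the changes but made no call after adjustment at 2 against 2 libraries. The median SE of a difference was 1.61 log2 over the mitochondrial ribosomal protein genes and 1.12 log2 over all tested genes. The reads behind a library were taken from the ratio of coverage to FPKM. Overlaps, starts and transcript lengths came from GENCODE M21, copies from blastn 2.17.0, and promoter sequences from RefSeq (GRCm38.p6).

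Genes were named by rule: the 6 highest and 4 lowest means, genes listed at 0, the 8 smallest p in each direction, 15 genes of known roles, and 2 per direction from each mitochondrial list. Kinase genes named Rps6k were removed from the cytosolic ribosomal list. The genes and lists were chosen with earlier results of these data known. Alternatives changed the pseudocount, filter, unit, scaling, TPM total, spread model and thresholds, used the replicate number as a block, or dropped 1 library at a time.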

Additional observations from a re-analysis of the deposited data

How the results depend on the processing

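The count of genes with a limma adjusted p under 0.05 was 0 under every alternative run, for all genes and for the mitochondrial ribosomal protein genes, a count that says nothing about stability. With the replicate number as a block, limma gave 6 of the latter an unadjusted p under 0.05 higher with UVB and 0 lower, and without it 6 and 0, of which 5 genes were shared. Mrpl37 was among them with the block alone and Mrps35 without it alone. Over all genes the block gave 984 higher and 126 lower against 1026 and 141. Deviations of same-numbered libraries had a correlation of 0.17 over tested genes and 0.04 over these 73, and with 2 pairs the numbers are not shown to pair the libraries. With 1 library left out, the number at an unadjusted p under 0.05 ranged from 0 to 21 higher, beside 0.0478% to 14.9% of all genes tested, and from 0 to 3 lower, beside 0.261% to 1.99%. The median difference ranged from 0.49 to 1.74 log2, and that relative to all genes from 0.24 to 1.38 log2. The filter was applied again there, and the remaining library of that group was taken to vary as the other group does. A pseudocount of 0.1 gave a median of 1.75 log2, or 1.40 relative to all genes; quantile normalization gave 0.90, and no filter gave 1.46 relative to all genes. In FPKM the sums were 3193 and 4927 without UVB and 5050 and 4378 with UVB, in a unit of another total. Of 17 genes fitted under every alternative, 11 kept their direction. Mrpl38, Mrpl53, Mrpl9 and Mrps27 did not pass the filter when either UVB library was left out, and kept their direction where fitted. Without 1 library the difference turned in Mrpl33 (-0.72 to 1.32), Mrpl54 (-0.86 to 0.49), Mrpl42 (-0.13 to 0.54), Mrps21 (-0.94 to 0.55), Mrpl18 (-1.64 to 0.091) and Mrps34 (-2.50 to 0.10), and the cause was not tested. The smallest adjusted p of these genes under any alternative was 0.136. No read numbers were recovered, so counting error is unknown.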
